A study of Mus musculus with 2 samples.

Results

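Gpnmb phagocytes were phagocytes of denervated mouse muscle with transcripts of at least 4 of 6 genes, *Gpnmb*, *Fabp5*, *Atp6v0d2*, *Syngr1*, *Rnf128* and *Trem2*, and of fewer than 4 of 8 inflammatory genes, among them *Cxcl3*, *Il1a*, *Olr1*, *Inhba*, *Thbs1*, *Hilpda* and *Flrt3*. They were chosen among cell barcodes that had over 200 detected genes and under 10% mitochondrial unique molecular identifiers (UMIs, each standing for 1 captured mRNA molecule). A barcode counted as a phagocyte when at least 2 of *Csf1r*, *Cd68*, *Adgre1* and *Lyz2* were detected. The rule found 3108 Gpnmb phagocytes among 48143 barcodes, 857 of 23385 in the IgG library and 2251 of 24758 in the SPP1-nAb library. *Spp1* was not part of the rule. Levels of the rule's own genes, and of every gene that sets these cells apart from other phagocytes of the same library, are descriptions without a test.

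The cells came from 2 droplet-based scRNA-Seq libraries at 7 dpi, 1 for each treatment. Male C57BL/6J mice aged 10 to 16 weeks had peroneal nerve injuries on both sides and received 2 μg of antibody in 10 μL into the tibialis anterior (TA) muscle, with injections repeated every 2 days. The IgG group was given goat anti-mouse IgG, and the SPP1-nAb group a neutralizing antibody against SPP1, the secreted phosphoprotein osteopontin. The study pooled male mice for each library and does not name their number. The study's methods give *S100GFP*-tg mice, in which *Gfp* marks Schwann cells, whereas the labels give C57BL/6J as strain. The study names the TA as the tissue of these libraries, while its general tissue protocol collects the gastrocnemius (GTN) muscle as well. The sample titles call both libraries GFP-positive, whereas the protocol sorts live cells with and without GFP, so every share below describes a library and not the muscle. The IgG library held 97607674 UMIs on 23779 barcodes and the SPP1-nAb library 127719916 UMIs on 25069 barcodes, of which 163 barcode sequences occurred in both libraries and 1 of those marked Gpnmb phagocytes in both. With 1 library per treatment, no difference between the libraries has a replicate check, and the treatment, the pooled mice and the handling of each library cannot be told apart. Levels are in CPM, the UMIs of a gene per 1000000 UMIs of the same cells, which is not divided by gene length, and ranges in parentheses are exact 95% intervals that cover counting error only.

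Phagocytes with *Trem2* and *Gpnmb* are known from fat, atherosclerotic arteries, brain and injured tissue, where they take up lipid-rich debris such as dead cells and myelin. TREM2 is a surface receptor for lipids and lipoproteins that signals through the adaptor TYROBP, GPNMB is a glycoprotein of lysosome-related membranes, and FABP5 carries fatty acids within the cell. ATP6V0D2 is a subunit of the proton pump that acidifies lysosomes and is best known from osteoclasts, RNF128 is a ubiquitin ligase, and SYNGR1 is a protein of vesicle membranes. SPP1 is secreted and binds CD44 and integrins.

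Of these 6 genes and *Spp1*, 5 had a promoter in the RefSeq table used here, and both promoters that held a searched motif are shown because their genes lie within the rule. The windows run from 250 bases before to 50 after the gene start (GRCm38.p6), and capitals mark the letters TGANTCA, the AP-1 motif, which fell 8 bases after the start in *Gpnmb* and 9 bases before it in *Trem2*.
Gpnmb, chr6:49036268-49036567, + strand: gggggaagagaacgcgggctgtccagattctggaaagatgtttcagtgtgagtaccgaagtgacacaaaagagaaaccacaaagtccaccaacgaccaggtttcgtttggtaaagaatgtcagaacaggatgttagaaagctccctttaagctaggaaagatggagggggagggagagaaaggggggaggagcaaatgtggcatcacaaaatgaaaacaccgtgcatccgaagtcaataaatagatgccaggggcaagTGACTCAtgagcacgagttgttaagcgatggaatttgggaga
Trem2, chr17:48346151-48346450, + strand: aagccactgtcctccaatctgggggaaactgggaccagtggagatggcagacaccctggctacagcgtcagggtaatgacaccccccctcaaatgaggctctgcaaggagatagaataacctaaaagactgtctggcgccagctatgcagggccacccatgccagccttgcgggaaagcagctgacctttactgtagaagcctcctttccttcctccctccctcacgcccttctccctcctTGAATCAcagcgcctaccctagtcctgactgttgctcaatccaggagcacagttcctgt
AP-1 letters occurred in 7.81% of the 32851 promoters of the table. No match was found in these 5 genes, on either strand, for the E-box CACGTG (7.15% of all promoters) or for the lysosome gene motifs TCACGTGA (0.974%), which contains the E-box, and TCATGTGA (0.986%). A match describes letters and not a bound site, and *Fabp5* and *Atp6v0d2* were not analysed here for motifs.

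The 6 genes of the rule were within 1.5-fold of each other between the Gpnmb phagocytes of the libraries. *Gpnmb* (ENSMUSG00000029816, GRCm39 chromosome 6, 49013426 to 49047863, + strand) had 630.4 CPM in the IgG and 642 CPM in the SPP1-nAb library, against 54.5 and 96 CPM in all other phagocytes. *Fabp5* had 6292 CPM in the IgG and 6258 CPM in the SPP1-nAb library, and other phagocytes had 1011 and 1729 CPM. The receptor gene *Trem2* had 522 and 566 CPM, with 169 and 201 CPM in other phagocytes. *Atp6v0d2* differed most of the 6 between the libraries, with 259 and 342 CPM, a log2 ratio of 0.40 (0.32 to 0.49). *Syngr1* had 320.2 and 308 CPM and *Rnf128*, the least detected, 51.3 and 45.1 CPM. Among the phagocyte genes of the rule, *Cd68*, a lysosomal membrane protein, had 999 and 879 CPM against 449 and 454 CPM in other phagocytes, and *Lyz2*, lysozyme, had 7236 and 8473 CPM against 6203 and 5842 CPM. *Csf1r*, the receptor for macrophage growth factor, had 221 and 278 CPM against 358 and 328 CPM, and *Adgre1*, the F4/80 antigen, 212 and 226 CPM against 295 and 259.6 CPM. In other phagocytes each of the 6 Gpnmb genes was higher in the SPP1-nAb library, by log2 ratios from 0.25 for *Trem2* to 1.26 for *Atp6v0d2*. These others include 231 IgG and 893 SPP1-nAb cells with at least 4 of the 6 genes, left out for their inflammatory genes. In phagocytes with at least 4 inflammatory but fewer than 4 Gpnmb genes, *Gpnmb* had 89.3 and 71.9 CPM. There *Fabp5*, *Syngr1* and *Rnf128* were also lower in the SPP1-nAb library, and *Atp6v0d2* and *Trem2* were higher.

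Most Gpnmb phagocytes were just inside the rule. Exactly 4 of the 6 genes were detected in 588 IgG and 1312 SPP1-nAb members, 5 in 234 and 786, and all 6 in 35 and 153. Just outside it, phagocytes with 3 of the genes and fewer than 4 inflammatory genes numbered 924 and 1637. *Gpnmb* had 227 and 206 CPM in these, 541 and 524 CPM in cells with 4 genes and 993 and 832 CPM in cells with all 6. Detection depends on depth, and the median cell had 5208.5 and 5882 UMIs with 3 genes but 7723 and 8009 UMIs with 6.

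**Figure D1:**
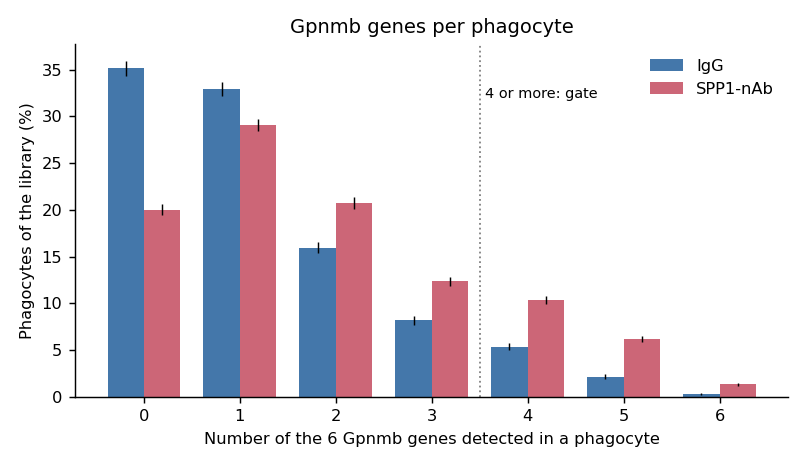
Share of phagocytes (%, y axis) by the number of the 6 Gpnmb genes detected (x axis) in the IgG and SPP1-nAb libraries; error bars are exact binomial 95% intervals. Cells with no such gene made up 35.1% of IgG and 20.0% of SPP1-nAb phagocytes, and the SPP1-nAb bars are the taller from 2 genes upward.

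Gpnmb phagocytes made up a larger part of the SPP1-nAb library. They were 6.16% (5.77 to 6.57) of the 13914 IgG phagocytes and 12.8% (12.3 to 13.3) of the 17608 SPP1-nAb phagocytes, a difference of 6.62 percentage points (5.98 to 7.26). Of all barcodes past the filters they were 3.66% (3.43 to 3.91) and 9.09% (8.74 to 9.46). The libraries also differed in depth, with a median of 6037 UMIs and 2223 genes in members after IgG against 6854 UMIs and 2378 genes after SPP1-nAb. Their mitochondrial share was 2.09% and 2.02% of UMIs. When every cell was first thinned to 2000 UMIs, the rule found 311 and 937 cells, which were 2.79% and 6.62% of phagocytes. That was a difference of 3.83 percentage points (3.32 to 4.35). Inflammatory genes were counted on the thinned cells too, so cells left out for them at full depth could enter. The share was higher in the SPP1-nAb library under both readings, and a larger population and more of these transcripts per cell cannot be told apart by a rule on detected genes.

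Other phagocyte sets stood in different proportions. Cells with at least 4 of the 8 inflammatory genes and fewer than 4 Gpnmb genes, called inflammatory phagocytes here, made up 6.38% (5.98 to 6.8) of phagocytes after IgG and 11% (10.5 to 11.4) after SPP1-nAb. Cells with at least 4 genes of each kind, which the rule leaves out, numbered 231 and 893, or 1.66% (1.45 to 1.89) and 5.07% (4.75 to 5.41). They were 21.2% and 28.4% of all phagocytes with at least 4 Gpnmb genes. Resident macrophages, marked by at least 3 of *Lyve1*, *Folr2*, *Cd163*, *Timd4* and *Cd209f*, went the other way, with 8.96% (8.49 to 9.44) and 2.65% (2.42 to 2.9).

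*Spp1* (ENSMUSG00000029304, GRCm39 chromosome 5, 104582165 to 104589235, + strand) had the same order of cell sets in both libraries at its upper end. In Gpnmb phagocytes it stood at 2548 CPM (2506 to 2590) after IgG. After SPP1-nAb it stood at 2334 CPM (2310 to 2357), for a log2 ratio of -0.13 (-0.15 to -0.10). Cells with both programs had 4526 and 4489 CPM, a log2 ratio of -0.01 (-0.05 to 0.02) that the counting error does not tell from 0. Inflammatory phagocytes had 2083 and 1491 CPM, a log2 ratio of -0.48 (-0.52 to -0.45). Cells with both programs thus held the highest level, followed by Gpnmb and then by inflammatory phagocytes.

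In all phagocytes outside the rule, the *Spp1* level was 587 and 881 CPM, and the log2 ratio of 0.59 (0.57 to 0.60) had the opposite sign. Without the cells of both programs, an alternative chosen after seeing the data, the level was 470.0 and 517 CPM, a log2 ratio of 0.14 (0.12 to 0.16). Resident macrophages had 25 and 47 CPM and macrophages with at least 3 of *Dcstamp*, *Ear2*, *Retnla* and *Rnase2a* had 41.5 and 148 CPM. Barcodes without any of the 4 phagocyte genes had 65.7 and 84.6 CPM, above both sets except the SPP1-nAb *Dcstamp Ear2* macrophages. Gpnmb phagocytes held 27.1% of all *Spp1* UMIs of the IgG library in 3.66% of its cells, and 32.7% of those of the SPP1-nAb library in 9.09% of its cells. Cells with both programs held a further 14.9% and 30.0%.

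**Figure D2:**
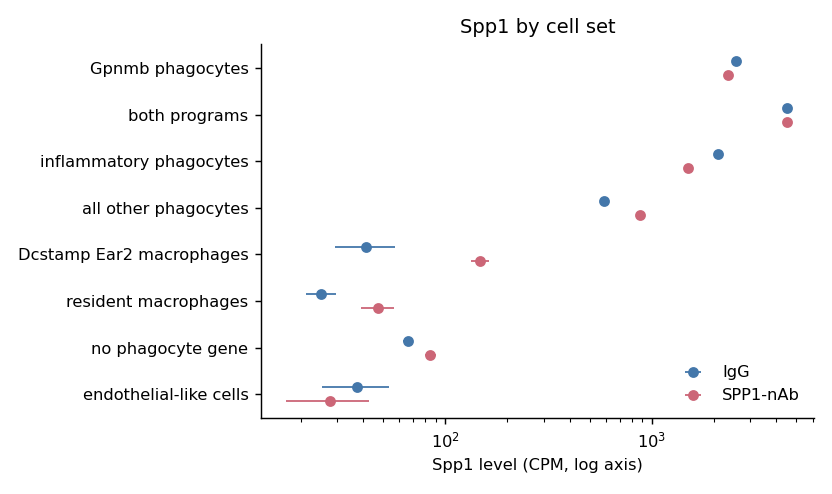
*Spp1* level (x axis, CPM on a log scale) by cell set (y axis) in the IgG and SPP1-nAb libraries; points are summed UMIs and lines exact Poisson 95% intervals. Gpnmb phagocytes (2548 and 2334 CPM) lie between cells of both programs and inflammatory phagocytes, and far above resident macrophages (25 and 47.0 CPM).

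Detection of *Spp1* in single members depended on depth. After each cell was thinned to 2000 UMIs, a *Spp1* UMI was found in 63.1% (59.8 to 66.4) of the IgG members, and in 62.4% (60.4 to 64.4) of the SPP1-nAb members. There, 3 and 10 shallower cells were left out. The difference of -0.687 percentage points had an interval from -4.52 to 3.21 and was not detectable at this depth. The shares were 54.8% and 51.5% at 1000 UMIs and 76.7% and 77.6% unthinned, so a cell without a UMI may still express the gene. The same share at 2000 UMIs was 4.76% (1.56 to 10.8) and 2.7% (0.561 to 7.7) in 105 and 111 endothelial-like cells, taken as a type that lacks *Spp1*. A further 286 and 204 such cells had fewer than 2000 UMIs and were left out. Over all 391 and 315 endothelial-like cells the unthinned medians were 1384 and 1470 UMIs. T and NK cell-like cells had 9.09% and 13.9% of only 22 and 36 cells. Other phagocytes had 17% and 24%. Members thus stood far above this background, while the level varied widely among them. At 2000 UMIs the median member had 1 *Spp1* UMI in both libraries and the highest had 148 and 86. The tenth of members with the most *Spp1* held 54.4% of the members' *Spp1* UMIs in the IgG and 57.1% in the SPP1-nAb library.

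Among members, the *Spp1* level was higher with a larger number of inflammatory genes that a cell carried beside the Gpnmb genes. Members with none of the 8 had 1607 and 1086 CPM in the IgG and SPP1-nAb libraries. Members with 1 had 1977 and 1869 CPM, those with 2 had 2595 and 2434 CPM and those with 3 had 4033 and 3022 CPM. The level was the lower in the SPP1-nAb library in each of these 4 classes, which held 167, 268, 242 and 180 IgG and 272, 582, 754 and 643 SPP1-nAb members. Beyond the rule the IgG level was lower at 4 genes, with 3661 and 4006 CPM. The levels were 6985 and 6689 CPM with 7 genes, in 13 and 46 cells. Cells with all 8 genes are not described here. *Gpnmb* did not follow, with 636 and 613 CPM in members without inflammatory genes and 615 and 624 CPM in members with 3. *Atp6v0d2* had 325 and 386 CPM without and 215 and 323 CPM with 3, so across these classes it stood lower where *Spp1* stood higher. The reverse held by the number of Gpnmb genes, of which *Atp6v0d2* is 1. It had 170 and 221 CPM in members with 4 and 589 and 578 CPM in members with all 6, where *Spp1* was also higher. Median depth moved with the classes of inflammatory genes, from 5833 to 6474.5 UMIs in the IgG and from 6022.5 to 7246 UMIs in the SPP1-nAb library. The part of depth in the order was not tested.

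**Figure D3:**
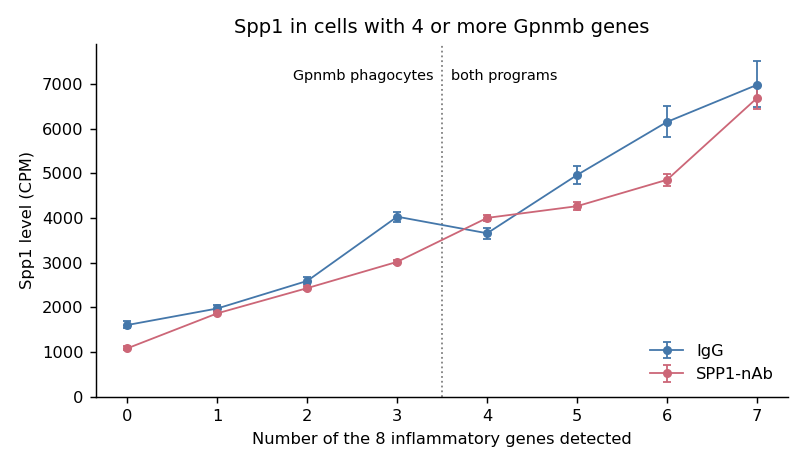
*Spp1* level (CPM, y axis) of phagocytes with 4 or more Gpnmb genes by the number of the 8 inflammatory genes detected (x axis); points are summed UMIs, bars exact Poisson 95% intervals, and the dotted line parts Gpnmb phagocytes (0 to 3) from cells of both programs. The level goes from 1607 and 1086 CPM at 0 genes to 6985 and 6689 CPM at 7 genes. From 0 to 7 genes the SPP1-nAb point is the lower at every number except 4. Cells with all 8 genes are not described here.

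Small differences in *Spp1* between the libraries depended on the rule. The log2 ratio of -0.13 in members was 0.0064 (-0.016 to 0.028) when cells with inflammatory genes were not left out, and -0.019 when cells were thinned before the rule was applied. Members with all 6 Gpnmb genes had 4217 and 3901 CPM of *Spp1*, those with 4 had 2379 and 2181 CPM, and phagocytes with 3 had 1163 and 873 CPM.

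Against all other phagocytes of the same library, 86 of 11840 genes were at least 2-fold higher in Gpnmb phagocytes of both libraries (0.726% of the genes compared) and 623 were at least 2-fold lower in both (5.26%). Taken singly, the IgG library had 1.56% of genes 2-fold higher and 9.81% lower, and the SPP1-nAb library 0.802% and 9.13%. Genes needed at least 100 UMIs over both sets and 20 cells with a UMI in each library, and the genes of the rule were left out. The median log2 ratio of all these genes was -0.11 in the IgG and -0.10 in the SPP1-nAb library. The other phagocytes hold the inflammatory, both-program, resident and *Dcstamp Ear2* sets. Their median depth was 4128 and 5021 UMIs, below that of the members, and with other phagocytes matched to the members' depth the counts were 79 and 564.

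Lipid genes were among the genes most in excess. *Fabp4*, a fatty acid carrier of fat cells and macrophages, had 700.0 and 602 CPM against 89 and 119 CPM in other phagocytes, log2 ratios of 2.98 and 2.34 in the IgG and SPP1-nAb libraries. *Lpl*, which releases fatty acids from lipoproteins, had 1463 and 1075 CPM against 502 and 451 CPM. *Cd36*, a scavenger receptor for oxidized lipids, had 1350.0 and 1004 CPM against 562 and 447 CPM. Of 15 compared genes of lipid uptake and storage, *Fabp4*, *Fabp3*, *Lpl*, *Cd36* and the lysosomal lipase *Lipa* were at least 2-fold higher in both libraries and *Dgat2*, for triglyceride synthesis, was 2-fold lower. The list's median log2 ratios were 0.73 and 0.67. The lipid droplet gene *Plin2* had 801 and 835 CPM against 361 and 452 CPM, which passed 2-fold in the IgG library alone. The list's summed level was 6393 and 5461 CPM in members and 2756 and 2769 CPM in all others, but 4403 and 3029 CPM in *Dcstamp Ear2* macrophages. At 2000 UMIs, *Cd36* was detected in 64.9% and 56.2% of members and in 75.3% and 56.8% of resident macrophages. *Lpl* was detected in 64.2% and 54.3% of members and in 78.3% and 39.4% of *Dcstamp Ear2* macrophages, so neither gene was particular to Gpnmb phagocytes.

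Among cholesterol genes, a few of export were higher in members and none of synthesis. *Abcg1*, a cholesterol exporter, had 145 and 180.5 CPM against 64.2 and 85.6 CPM in other phagocytes, and *Nr1h3*, the sterol-sensing transcription factor LXR alpha, had 28.6 and 27.6 CPM against 9.35 and 9.82 CPM. These were the 2 of 12 genes of efflux and lipoproteins that were 2-fold higher in both libraries, and *Ch25h*, which makes 25-hydroxycholesterol, was the 1 that was lower. *Apoe*, the most abundant of the list, had 7814 and 9444 CPM against 6144 and 5711 CPM. None of 15 cholesterol synthesis genes passed 2-fold in both libraries, and their median log2 ratios of -0.36 and -0.46 lay below the median of all genes.

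Of 22 lysosomal hydrolase and membrane genes, 7 were at least 2-fold higher in members of both libraries and none was 2-fold lower, with median log2 ratios of 0.67 and 0.63. The 7 were the cathepsins *Ctsb*, *Ctsd*, *Ctsk*, *Ctsl* and *Ctss*, the sphingolipid activator *Psap* and the membrane gene *Cd63*. *Ctsd* had 1895 and 2196 CPM against 523 and 794 CPM and *Ctsb* had 6229 and 6507 CPM against 2698 and 3108 CPM in other phagocytes. Summed, the list had 28183 and 31862 CPM in members against 13805 and 16550.2 CPM. The proton pump differed less. None of its 16 genes outside the rule passed 2-fold in both libraries, and the median log2 ratios of 0.58 and 0.40 were positive. *Atp6v1c1*, a pump subunit, had 229 and 207 CPM against 104 and 131 CPM. *Atp6v0d2* of the rule, the pump subunit that chose the members, had log2 ratios of 3.65 and 2.79.

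Genes known from lipid-associated phagocytes elsewhere were present in part. Of 13 compared, *Lgals3*, *Cd63*, *Lpl* and *Spp1* were 2-fold higher in both libraries and none was lower. *Lgals3*, a galectin that binds damaged lysosomes, had 5928 and 5589 CPM against 1717 and 2369 CPM, and the membrane organizer *Cd9* had 390.0 and 388 CPM against 155 and 204 CPM. *Tyrobp*, the TREM2 adaptor, had 1867 and 2349 CPM against 1590.1 and 1722 CPM. The protease inhibitor *Cst7*, which marks such cells in brain, had only 1.82 and 1.6 CPM. Osteoclast genes were split. *Acp5*, an acid phosphatase, had 72.9 and 128 CPM against 24 and 47.6 CPM and *Ctsk*, a collagen-degrading cathepsin, 85.5 and 71.2 CPM against 20.5 and 28.8 CPM, whereas the protease gene *Mmp9* had 1.09 and 2.47 CPM against 10.1 and 11.1 CPM and the fusion gene *Dcstamp* 2.18 and 6.42 CPM against 13.1 and 12.8 CPM.

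**Figure D4:**
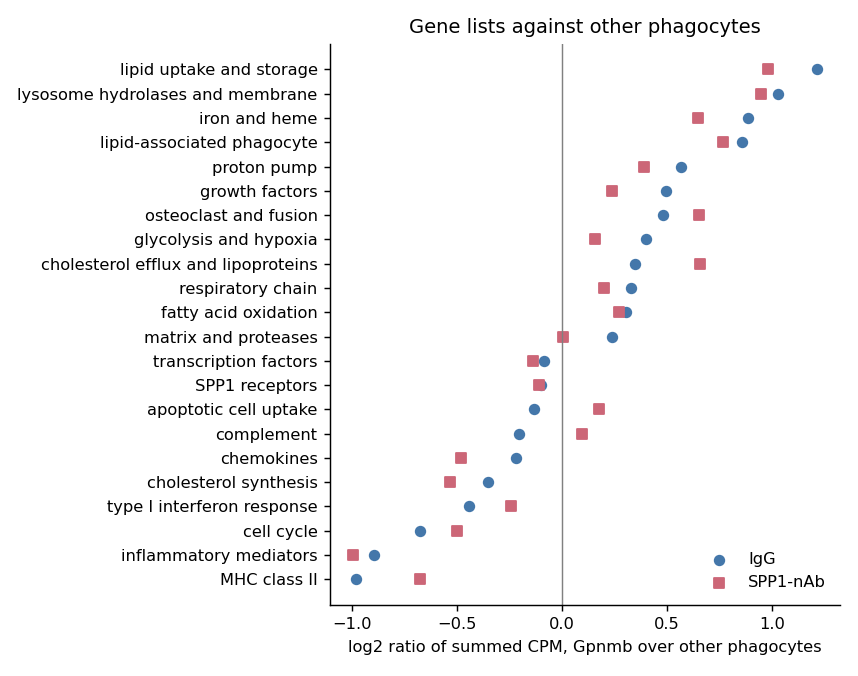
Log2 ratio of summed CPM (x axis), Gpnmb phagocytes over other phagocytes of the same library, for 22 gene lists (y axis), with circles for IgG and squares for SPP1-nAb. Lipid uptake (1.21 and 0.98) and lysosome genes (1.03 and 0.94) lie farthest right. MHC class II (-0.98 and -0.68) and inflammatory mediators (-0.89 and -0.99) lie farthest left. The rule counts phagocytes rich in its inflammatory genes among the others, so the mediator ratios are not independent of it.

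The 15 genes with the largest excess in both libraries, chosen by the weaker of the library ratios, joined lipid, surface and regulatory genes. *Stra6l*, a receptor for retinol-binding protein, led with 9.28 and 15.6 CPM against 1.54 and 2.75 CPM in other phagocytes. *Cd22*, a sialic acid-binding lectin better known from B cells, had 27.1 and 32 CPM against 6.57 and 7.79 CPM, while the B cell list summed to 5.82 and 5.62 CPM, 90.2% of it from *Cd79b*. *Fbxo32*, a ubiquitin ligase subunit known from muscle wasting, had 56.8 and 92.6 CPM against 15.5 and 22.7 CPM. *Pld3*, a lysosomal nuclease, had 303 and 337 CPM against 92.4 and 117 CPM and was detected in 78.1% and 82.4% of members. *Bhlhe41*, a transcriptional repressor of tissue macrophages, had 30.7 and 13.3 CPM against 7.1 and 4.41 CPM. The others were *Fabp4*, *Fabp3*, *Nr1h3*, the macrophage-secreted *Cd5l*, the protease *Mmp27*, the histidine-degrading enzyme *Hal*, *Ahnak2*, *Pianp*, *C77080* and the antisense RNA *Dnmt3aos*, for which reads from the overlapping gene were not told apart here. Several of these were rare, and *Cd5l* had 51 and 105 UMIs in members.

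Of 8 resident macrophage markers, 6 were at least 2-fold lower in members of both libraries, against 5.26% of all genes compared. The list summed to 1365 and 1319 CPM in members against 3556 and 2719 CPM in other phagocytes. *Lyve1*, a hyaluronan receptor, had 9.46 and 2.65 CPM against 97.4 and 25.9 CPM in other phagocytes, and the scavenger receptor *Cd163* had 27.3 and 22.2 CPM against 211 and 113 CPM. Of 7 monocyte markers, which summed to 818 and 818 CPM against 1802 and 1603 CPM, 5 were lower, among them the chemokine receptor gene *Ccr2* with 225 and 236 CPM against 729.6 and 603 CPM. The 10 genes with the largest deficit were *Cd226*, *Cd209f*, *Cd209b*, *S100a9*, *Lyve1*, *Lilra5*, *Wnt11*, *Klrb1b*, *P2ry10* and *Tppp*. Several had few UMIs in members, 1 and 2 for *Cd209b*, 1 and 3 for *Tppp* and 2 and 7 for *Lilra5*, so their order is uncertain. *Cd209f*, a lectin of resident macrophages, had 9 and 12 UMIs, in 5 members of each library.

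MHC class II genes, for antigen presentation, had median log2 ratios of -1.05 and -0.69, and 2 of 9, *H2-DMb2* and *H2-Oa*, were 2-fold lower in both libraries. *Cd74*, the invariant chain and the most abundant of them, had 4211 and 4759 CPM against 8081 and 7550.1 CPM. The MHC class II list summed to 8382 and 9966 CPM in members and 16518 and 15922 CPM in other phagocytes. It had 9015 and 11064 CPM in inflammatory, 8660 and 6312 CPM in resident and 24935 and 21874 CPM in *Dcstamp Ear2* cells. A level below that of all other phagocytes was thus not particular to Gpnmb phagocytes. *Il1b*, the interleukin 1 beta gene, had 707 and 816 CPM against 1624 and 1838 CPM and *Il6* 14.4 and 10.8 CPM against 47.1 and 46.6 CPM, the 2 of 8 inflammatory mediators past 2-fold. The nitric oxide synthase gene *Nos2* had 1 and 2 UMIs in members. The rule leaves phagocytes rich in its inflammatory genes out of the members and counts them among the other phagocytes. The mediator list summed to 1358 and 1397 CPM in members and 2521 and 2779 CPM in other phagocytes. It had 5762 and 4429 CPM in inflammatory phagocytes and 732 and 1041 CPM in resident macrophages. The lower mediator level in members was thus not independent of the rule, whose part was not tested. Of the complement genes, *C4b* had 15.1 and 17.6 CPM against 59.9 and 42.2 CPM, whereas *C1qb*, of the opsonin C1q, had 1927 and 2153 CPM against 1933 and 1801 CPM.

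Of 18 cell cycle genes, 8 were at least 2-fold lower in members of both libraries, against 5.26% of all genes compared. *Top2a*, for DNA untangling in division, had 10.4 and 11.3 CPM against 36.3 and 32.8 CPM. At 2000 UMIs per cell, 3 or more of the 18 were found in 0.468% (0.128 to 1.19) of members after IgG and 0.982% (0.616 to 1.48) after SPP1-nAb. Other phagocytes had 2.55% and 2.42%. Unthinned, these shares were 5.37% and 9.55% in members and 6.04% and 7.95% in others. *Mki67*, a marker of dividing cells, was detected at 2000 UMIs in 3.51% and 5.00% of members and in 4.12% and 5.06% of other phagocytes.

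Between the libraries, 208 of 8997 genes were at least 1.5-fold higher in the Gpnmb phagocytes of the SPP1-nAb library (2.31% of the genes compared) and 369 were at least 1.5-fold lower (4.1%). The median log2 ratio of all was -0.02. Genes whose whole counting interval lay past 1.5-fold, a count chosen after seeing the data, numbered 48 and 118. The balance depended on the cells, since thinning before the rule gave 271 higher and 198 lower genes.

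The genes of the 12 largest ratios upward came from several programs. *Chil3*, a secreted lectin of alternatively activated and monocyte-derived cells, had 112 and 345 CPM, a log2 ratio of 1.62 (1.5 to 1.74), and 1.60 (1.56 to 1.64) in other phagocytes. *Ccl24*, a chemokine that draws eosinophils, had 204 and 472 CPM and a log2 ratio of 1.21 (1.12 to 1.30). *Rnase2a* and *Ear2*, both ribonucleases named for eosinophils, had 10.2 and 34.3 CPM and 27.3 and 62.6 CPM, log2 ratios of 1.75 (1.35 to 2.18) and 1.20 (0.95 to 1.45), and 2.68 (1.77 to 3.75) and 2.20 (1.63 to 2.83) when cells were thinned before the rule. With *Retnla* at 270.0 and 495 CPM and *Dcstamp* at 2.18 and 6.42 CPM, all 4 genes of the *Dcstamp Ear2* list were past 1.5-fold upward. Summed, the list had 309.6 and 598 CPM in members and 794 and 1052 CPM in other phagocytes, so members stayed below the others in both libraries.

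*S100a9*, an alarmin of neutrophils, had the largest ratio, from 3.09 and 23.7 CPM, which were 17 UMIs in 7 members of the IgG library and 384 in 104 of the other. Other phagocytes had 58.3 and 243 CPM. The neutrophil list was at 64 and 112 CPM in members against 157 and 522 CPM in others, with *Csf3r* as its most abundant gene and *Ly6g* at 0 in members of both libraries. UMIs of 2 or more neutrophil genes were found in 17 IgG and 121 SPP1-nAb members, and the part of neutrophil RNA in *S100a9* was not tested. *Ptgs1*, the prostaglandin synthase COX-1, had 5.46 and 15.6 CPM, *Tnfsf14*, the TNF family ligand LIGHT, 5.46 and 11.8 CPM, and *Ccl5*, a T cell chemokine, 11.1 and 24.7 CPM. *AW112010*, *Bckdha*, *Lsmem1* and the matrix gene *Postn* completed the 12, and *Postn* had the opposite sign, -0.56 (-1.40 to 0.35), when cells were thinned before the rule. The ratio of *Ptgs1* was then 0.88 (0.03 to 1.85), from 1.51 (0.96 to 2.11), and *S100a9* was at 1 UMI in IgG and 384 in SPP1-nAb members, a ratio of 6.72 (4.24 to 12.03) from 2.94 (2.24 to 3.73).

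**Figure D5:**
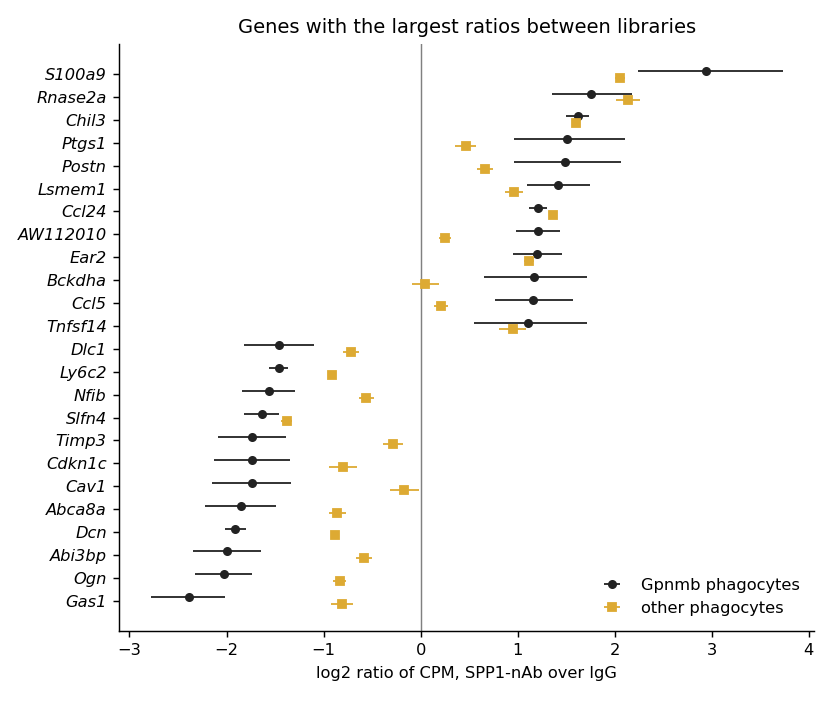
Log2 ratio of CPM (x axis), SPP1-nAb over IgG, for the 12 genes with the largest ratio in each direction (y axis), in Gpnmb phagocytes (circles) and in other phagocytes (squares); lines are exact 95% counting intervals. *S100a9* (2.94) and *Gas1* (-2.39) are at the ends, and all 24 genes have the same sign in other phagocytes, although the *Bckdha* interval there includes 0.

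The 12 largest ratios downward held *Gas1*, *Ogn*, *Abi3bp*, *Dcn* and *Abca8a*, which are known from fibroblasts, and *Timp3*, *Cav1*, *Cdkn1c*, *Nfib* and *Dlc1*. *Dcn*, the matrix proteoglycan decorin, had 282 and 75 CPM, a log2 ratio of -1.91 (-2.02 to -1.80). The 6 mesenchymal markers, of which 3 were past 1.5-fold downward, summed to 581 and 283 CPM in members and 953 and 793 CPM in other phagocytes, a log2 ratio in members of -1.04 (-1.11 to -0.97). These UMIs were concentrated, with 92.7% of them in 43 IgG members and 89.1% in 113 SPP1-nAb members. UMIs of 2 or more mesenchymal genes were found in 51 and 106 members. Without those cells, the list's log2 ratio was -0.36 (-0.59 to -0.12). *Dcn* then had -1.46, *Ogn* -1.20, *Abi3bp* -1.08, *Nfib* -1.04, *Timp3* -0.99, *Dlc1* -0.86 and *Abca8a* -0.50, all 7 nearer 0 than with those cells. *Gas1*, *Cav1* and *Cdkn1c* had -2.63, -1.91 and -1.77. With cells thinned before the rule, 311 IgG and 937 SPP1-nAb cells were members. The ratio then turned for *Abca8a* (0.23), *Cdkn1c* (1.82), *Timp3* (2.09), *Nfib* (0.46) and *Dlc1* (2.39), on 2 to 9 UMIs in IgG members. *Gas1* was then at -1.18 (-2.17 to -0.15), *Ogn* at -1.02 (-1.72 to -0.30), *Abi3bp* at -0.64 (-1.83 to 0.67), *Dcn* at -1.27 (-1.57 to -0.97) and *Cav1* at -1.10 (-1.77 to -0.39), each at least 1.5-fold nearer 0 than before. The IgG library held 3372 and the SPP1-nAb library 1570 mesenchymal-like cells, and the part of their RNA in these genes was not tested.

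*Slfn4* and *Ly6c2* were the other genes of the 12. *Slfn4*, an interferon-response gene of monocytes, had 96.2 and 30.9 CPM, a log2 ratio of -1.64 (-1.82 to -1.46), and -1.38 (-1.44 to -1.33) in other phagocytes. *Ly6c2*, the monocyte surface antigen Ly6C, had 283 and 103 CPM, a log2 ratio of -1.46 (-1.56 to -1.36). Type I interferon genes as a list had 3 of 10 past 1.5-fold downward, against 4.1% of all genes compared, and none upward. Their median log2 ratio was -0.54. The 3 were *Isg15*, a ubiquitin-like modifier, with 446 and 283 CPM, *Ifit3* with 70.8 and 32.2 CPM and *Ifit1* with 27.3 and 16 CPM. The summed list had 1075 and 712 CPM in members and 1462 and 842 CPM in other phagocytes, log2 ratios of -0.59 (-0.64 to -0.55) and -0.80 (-0.81 to -0.78).

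Of 14 chemokine genes, 3 were past 1.5-fold downward in SPP1-nAb members and 1 upward, against 4.1% and 2.31% of all genes compared. The summed list had a log2 ratio of -0.23 (-0.24 to -0.22) in members and 0.030 (0.026 to 0.033) in other phagocytes. In inflammatory phagocytes it was also lower in the SPP1-nAb library, with 43434 and 35480 CPM. *Ccl2*, which draws monocytes, had 1983 and 1086 CPM, a log2 ratio of -0.87 (-0.90 to -0.83). *Ccl7* had 1701 and 1085 CPM and *Ccl12* 469.9 and 251 CPM, and the gene past it upward was *Ccl24*. *Ccl5*, described above and outside this list, was also past 1.5-fold upward, with a log2 ratio of 1.16 (0.77 to 1.57). *Tnf*, an inflammatory cytokine gene, with 140.4 and 75 CPM, and *Il10*, which encodes an anti-inflammatory cytokine, with 75 and 45.9 CPM, were the 2 of 8 mediators past 1.5-fold, both downward. *Il1b* had 707 and 816 CPM, a log2 ratio of 0.21 (0.15 to 0.26).

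Few lipid and lysosome genes were past 1.5-fold between the libraries. The lipid uptake list had 6393 and 5461 CPM in members, a log2 ratio of -0.23 (-0.25 to -0.21), against 0.007 (-0.003 to 0.016) in other phagocytes. This list was also lower in the SPP1-nAb library in inflammatory (3574 and 2932 CPM) and resident cells (2545 and 2133 CPM). *Msr1*, a scavenger receptor with 415 and 260.0 CPM in members, was the 1 of 14 lipid uptake genes past 1.5-fold, downward. *Lpl* and *Cd36* had log2 ratios of -0.44 (-0.48 to -0.41) and -0.43 (-0.47 to -0.39). The lysosome list had a log2 ratio of 0.18 (0.17 to 0.19) and the proton pump one of 0.05 (0.03 to 0.07), with none of 22 and 16 genes past 1.5-fold. Of 11 genes of cholesterol efflux none passed it, and *Apoe* had a ratio of 0.27 (0.26 to 0.29). In cholesterol synthesis, *Insig1* and *Fdft1* were lower and *Dhcr7* higher among 14 genes. The regulator *Bhlhe41* had 30.7 and 13.3 CPM, a log2 ratio of -1.21 (-1.51 to -0.91), the 1 of 16 listed transcription factors past 1.5-fold. *Mitf* and *Tfeb*, of the family that controls lysosome genes, had log2 ratios of -0.19 (-0.27 to -0.11) and 0.00 (-0.26 to 0.26).

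MHC class II genes summed to 8382 and 9966 CPM in members, a log2 ratio of 0.25 (0.23 to 0.26), and 1 of 7, *H2-DMb1*, was past 1.5-fold upward. Genes of SPP1 receptors were all within 1.5-fold. *Cd44*, the most abundant, had 751 CPM in the IgG and 879 CPM in the SPP1-nAb library, and the summed list of 8 had 1544 and 1720.3 CPM in members and 1654 and 1854 CPM in other phagocytes. *Itgb3*, the integrin beta 3 gene, had only 0.91 and 0.802 CPM.

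Members with and without a *Spp1* UMI at 2000 UMIs per cell were compared within each library, 539 with 315 cells in IgG and 1399 with 842 in SPP1-nAb. Their median unthinned depths were close, 6089 against 5964 and 6942 against 6713.5 UMIs. Levels come from their full counts. Of 5861 genes compared, without *Spp1*, 3 were at least 2-fold higher with *Spp1* in both libraries and 18 were 2-fold lower. *Gcnt2*, a glycan-branching enzyme, led upward with 28.4 against 11 CPM in the IgG and 22.5 against 8.79 CPM in the SPP1-nAb library. The others were *Cdkn1c*, an inhibitor of the cell cycle, and the surface protein gene *Cd24a*. *Retnla*, a secreted product of alternatively activated macrophages, was lower with *Spp1*, at 128 against 517 CPM in the IgG and 249.6 against 909 CPM in the SPP1-nAb library. *Cd163* was lower too, with 14 against 50.4 CPM in the IgG and 8.57 against 45.1 CPM in the SPP1-nAb library. The 6 Gpnmb genes of the rule together were higher with *Spp1*, by log2 ratios of 0.42 and 0.39, and *Gpnmb* had 703 against 502 CPM in the IgG and 709 against 529 CPM in the SPP1-nAb library. *Fabp5* and *Syngr1* were higher as well, by 0.46 and 0.42 and by 0.41 and 0.66. *Atp6v0d2* had 255 against 266 CPM in the IgG and 334 against 355 CPM in the SPP1-nAb library.

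MHC class II genes summed to 7061 against 10699 CPM in the IgG and 8219 against 12915 CPM in the SPP1-nAb library in members with against without *Spp1*. The inflammatory genes of the rule had 1733 against 936 CPM in the IgG and 2442 against 1649 CPM in the SPP1-nAb library. Lysosome genes differed little, with log2 ratios of 0.16 and 0.18. Mesenchymal markers had 342 against 999.5 CPM in the IgG and 188 against 443 CPM in the SPP1-nAb library, and *Col1a1* and *Col3a1* were among the 10 genes with the largest deficit, so connective tissue RNA moved with this division and its part in it was not tested. Interferon genes were higher with *Spp1* in the IgG library alone, by a log2 ratio of 0.77 against 0.01 in the SPP1-nAb library, a contrast that was not tested.

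Of the markers of other cell types, mesenchymal genes, described above, had a UMI in 30.3% of IgG and 26.2% of SPP1-nAb members, and neutrophil genes had one in 29.2% and 40.3%. Of 8 T and NK cell genes, *Cd3e*, *Nkg7* and *Trbc2* were at 0 in both libraries, and the list's 374 and 247 CPM came to 99.5% from *Il7r*. This interleukin 7 receptor gene had 373 and 246 CPM against 89.3 and 99.2 CPM in other phagocytes. B cell genes summed to 5.82 and 5.62 CPM, and Schwann cell genes to 39.7 and 34.6 CPM, mostly *Mbp*. Endothelial genes had 50.6 and 21.5 CPM, of which *Flt1* had 19.3 and 4.13 CPM and *Pecam1* 7.82 and 11 CPM, and 12 and 14 members had 2 or more of them. Myofiber genes summed to 40.4 and 24.9 CPM, against 141 and 115 CPM in other phagocytes. Scores for doublets, droplets with more than 1 cell, placed 17.4% of IgG and 14.9% of SPP1-nAb members in the highest 10% of their library, and 13.5% and 11.7% of other phagocytes. No cell was removed for its score, and with those cells left out the *Spp1* log2 ratio was -0.24 and 247 genes, not 369, were lower.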

How the data were processed

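Both libraries were 10x Genomics droplet libraries of sorted live cells. The deposited matrices hold raw UMI counts per gene and barcode, which the authors made with Cell Ranger, version 8.0.0 in the submitters' processing notes and 9.0.1 per the file headers. Whether the build was GRCm38 or GRCm39 is not settled by the methods, and 31674 of 32287 features had an identifier in GENCODE M39 (GRCm39), the source of the gene positions. Genes were counted by UMI, and filtered barcodes were used without further correction. Counts were summed over the cells of a set and divided by the set's total. Ratios carry exact binomial, levels exact Poisson and shares Clopper-Pearson 95% intervals, which cover counting error only.

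With 1 library per treatment no test across samples was run, and genes were counted by size, 1.5-fold between libraries and 2-fold between cell sets. These needed at least 100 UMIs and 20 cells with a UMI. The members and gene lists were chosen with earlier results of these data known. Named genes were those of the rule, *Spp1*, the 2 to 4 most abundant of a list, the 15 most and 10 least in excess over other phagocytes, and the 12 with the largest ratio in each direction between libraries, with at least 200 UMIs and 50 cells. Ranked lists left out mitochondrial, ribosomal, hemoglobin, immunoglobulin, sex-linked and rule genes and gene models. Other genes, such as those past a list's fold, were named after their values were seen. Some genes, 1 of them in the rule, are not reported here. Doublets were scored against simulated pairs and removed only in an alternative. Alternatives changed the rule, depth, filters and fold. The interval count and the removal of both-program and mesenchymal cells were chosen after seeing the data. On simulated counts for the comparison between libraries (9000 genes), 95.2% of intervals held the true ratio. Of 200 genes changed 2-fold, 97.5% were counted, as were 0.864% of unchanged genes. The counts were independent Poisson draws, the model behind the intervals, without spread between cells or libraries. They check the calculation and give no error rate for the genes counted above. Of 100 planted pairs of a Gpnmb phagocyte and a mesenchymal-like cell, 74% scored in the highest 10%. Tools were python 3.11.15, numpy 2.4.6, scipy 1.17.1, pandas 2.3.3, scikit-learn 1.9.0 and matplotlib 3.10.9.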

Additional observations from a re-analysis of the deposited data

Results flagged for a closer look

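*Spp1* and 2 gene lists had log2 ratios of SPP1-nAb over IgG with opposite signs in Gpnmb phagocytes and in all other phagocytes, each at least 0.1 from 0. For *Spp1* the ratio was -0.13 (-0.15 to -0.10) in Gpnmb phagocytes and 0.59 (0.57 to 0.60) in other phagocytes. Within the other phagocytes it was -0.48 (-0.52 to -0.45) in inflammatory cells and -0.01 (-0.05 to 0.02) in cells of both programs. Without the latter the others had 0.14 (0.12 to 0.16). A ratio below 0 was thus not particular to Gpnmb phagocytes. In Gpnmb phagocytes the *Spp1* ratio was under 0.1 from 0 with cells thinned before the rule (-0.019). The same held with at least 3 Gpnmb genes (-0.080) and without leaving out inflammatory genes (0.0064). The apoptotic cell uptake list had 0.14 (0.12 to 0.16) in Gpnmb phagocytes and -0.16 (-0.17 to -0.16) in other phagocytes. Its summed level was 3636 and 3939 CPM in inflammatory, 10314 and 10747 CPM in resident and 2221 and 3271 CPM in *Dcstamp Ear2* cells. A ratio above 0 was thus not particular to Gpnmb phagocytes for this list. The complement list had 0.11 (0.09 to 0.13) in Gpnmb phagocytes and -0.19 (-0.20 to -0.18) in other phagocytes. Without the members bearing 2 or more mesenchymal genes it was 0.09 (0.07 to 0.11) in Gpnmb phagocytes, under 0.1. The complement list summed to 3997 and 4214 CPM in inflammatory, 11277 and 11367 CPM in resident and 2340 and 3505 CPM in *Dcstamp Ear2* cells. A higher level in the SPP1-nAb library was thus not particular to Gpnmb phagocytes here either. Both lists hold *C1qa*, *C1qb* and *C1qc*, the subunits of C1q. *C1qa* had 1278 and 1496 CPM against 1592 and 1365 CPM in other phagocytes. *Axl*, a receptor for dying cells, had 54.9 and 79.2 CPM against 60.0 and 62.9 CPM, and *Pros1*, which bridges such receptors to their targets, had 23.1 and 35.4 CPM against 75.1 and 54.6 CPM. In each case the difference between the cell sets was not tested, since each treatment had 1 library.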

How the results depend on the processing

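The share of Gpnmb phagocytes was higher in the SPP1-nAb library under every alternative run. Its difference of 6.62 percentage points was 3.83 with cells thinned before the rule, 9.28 with at least 3 and 3.4 with at least 5 Gpnmb genes, 10.04 without leaving out inflammatory genes, 7.65 with 3 phagocyte genes and 5.43 among all barcodes. The *Spp1* log2 ratio of -0.13 was -0.019, -0.080, -0.19 and 0.0064 under the first 4 of these, -0.24 without the highest doublet scores, -0.21 without cells bearing genes of another type and -0.19 as a mean over cells. The *Spp1*-positive share difference of -0.687 turned to 2.70 with the thinned rule, 0.64 with 3 genes and 0.90 without thinning. Genes higher in SPP1-nAb members, 208, were 494 at 30 UMIs, 4106 at 1 UMI, 39 at 2-fold and 48 by whole interval. Genes lower, 369, were 198 with the thinned rule, 621 with 3 genes, 227 without other-type cells, 982 at 30 UMIs, 3559 at 1 UMI, 98 at 2-fold and 118 by whole interval. Genes higher than in other phagocytes, 86, were 257 at 1 UMI and 262 at 1.5-fold. Genes lower, 623, were 363 with 3 Gpnmb genes, 402 with 3 phagocyte genes, 1000 at 30 UMIs, 3941 at 1 UMI and 1464 at 1.5-fold. Of 875 values for 48 named genes, 706 stayed, 159 moved and 10 turned. These were *Postn* (-0.56), *Abca8a* (0.23), *Cdkn1c* (1.82), *Timp3* (2.09), *Nfib* (0.46) and *Dlc1* (2.39) with the thinned rule, *Postn* (-0.31) with 5 genes, *Cdkn1c* (0.30) with 3 phagocyte genes, and *Cdkn1c* (0.16) and *Timp3* (0.48) without other-type cells. Fewer cells or genes entered the stricter settings. Thinning before the rule could also let in cells left out for inflammatory genes at full depth. Beyond that the cause was not tested. No paired analysis was possible because each treatment had 1 library.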

Other observations

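Iron storage genes were abundant in Gpnmb phagocytes. *Fth1*, the ferritin heavy chain, had 15142 and 15571 CPM against 8404 and 10333 CPM in other phagocytes, and *Ftl1*, the light chain, 11537 and 11754 CPM against 5593 and 6699.6 CPM. None of 11 iron and heme genes was 2-fold higher in both libraries and *Cp*, ceruloplasmin, was 2-fold lower, with 28.2 and 11.4 CPM against 58.6 and 35.1 CPM. *Hmox1*, which breaks down heme, had 299 and 431 CPM against 243 and 475 CPM. Between the libraries, *Trf*, transferrin, was past 1.5-fold upward in members and *Cp* downward.

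Among 14 growth factor genes, *Gdf15* and *Gdf3*, both of the TGF beta family, were 2-fold higher than in other phagocytes of both libraries and *Areg*, amphiregulin, was lower. *Gdf15* had 564 and 573 CPM against 194 and 247 CPM in other phagocytes. *Igf1*, a growth factor for muscle, had 343 and 328 CPM against 234 and 218 CPM. *Nrg1*, a ligand for ERBB receptors of Schwann cells, had 66.9 and 125 CPM against 99.9 and 262 CPM, log2 ratios between the libraries of 0.90 (0.74 to 1.07) in members and 1.39 (1.35 to 1.44) in others. None of 16 genes of glycolysis, 20 of the respiratory chain and 12 of fatty acid oxidation was 2-fold apart in both libraries. *Gfp* transcripts, at 263 and 298 CPM in members and 226 and 282 CPM in other phagocytes, were present in both sets, and the cells that made them were not identified here.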
